A study of Mus musculus with 8 samples.

Results

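The genes described here encode the subunits of oxidative phosphorylation, the chain of mitochondrial enzymes that burns the electrons of food to make ATP. They were chosen by name: a gene was a member where a probe set with a single platform gene symbol had a symbol beginning Nduf (subtypes a, b, c, s and v), Uqcr, Cox4 to Cox8 or Atp5, or was Sdha, Sdhb, Sdhc or Sdhd. This gave 81 of the 18194 genes with such a probe set, namely 35 of complex I, 4 of complex II, 8 of complex III, 17 of complex IV and 17 of complex V. Each gene was read through its probe set with the highest mean over the 8 arrays, out of 164 member probe sets, and no measured difference entered the choice of members. The complex of a gene follows its name here. Ndufa4, now counted with complex IV, therefore stands under complex I beside its relative Ndufa4l2, and Cox7a2l, which joins complexes into supercomplexes, stands under complex IV.

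The arrays measured RNA from spleen cells of leukemic mice with 1 of 2 forms of the CBFb-SMMHC fusion, a protein made of part of CBFb and part of a smooth muscle myosin heavy chain that arises from an inversion in acute myeloid leukemia. Mice with CBFb-SMMHC, called full-length, had received the mutagen ENU and were leukemic when taken 2 months later. Mice with CBFb-SMMHCd179-221, called truncated, were leukemic at 3 weeks of age. By their labels, the 4 Affymetrix arrays of a genotype came from 2 animals, of which animal 1 gave a single array and animal 2 gave 3. Genotype, age and mutagen go together, so their effects cannot be told apart. All mice are labelled as chimeras, in which some cells descend from the host embryo, although the series text calls the full-length mice knock-in. The share of cells with the fusion was therefore not known here, and in bulk RNA fewer cells of a type and less RNA per cell cannot be told apart. All values are deposited log2 expression values, in which a step of 1 is a doubling, and all differences are truncated minus full-length.

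Oxidative phosphorylation runs in the inner mitochondrial membrane. Complex I (NADH dehydrogenase) and complex II (succinate dehydrogenase) pass electrons to ubiquinone, complex III passes them on to cytochrome c, and complex IV (cytochrome c oxidase) hands them to oxygen; complexes I, III and IV pump protons, and complex V (ATP synthase) uses the returning protons to make ATP. Most subunits are encoded in the nucleus and are made in nearly every cell, while a few exist in tissue-specific forms, such as the heart and skeletal muscle forms of complex IV. Myeloid leukemia cells are known to depend on this pathway, and red cell precursors build up mitochondria and heme before they discard the former.

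The arrays did not group by animal. In both genotypes the single array of animal 1 was most like array 1 of animal 2 (correlation over probe sets 0.989 for full-length and 0.987 for truncated), and arrays 2 and 3 of animal 2 were most like each other (0.997 and 0.997). Array 1 of animal 2 was less like array 2 of the same animal (0.954 and 0.976). The first 2 arrays of each genotype are called array set 1 below and the last 2 array set 2; what separates the sets is not given in the sources used here. This order goes against the animal labels, which may be wrong, and every mean over animals, SD, interval and p below rests on them. Some cell type markers moved with the sets. Primary granule genes, which define myeloid precursors, had list medians of 5.55 and 4.86 in the full-length arrays of set 1, 9.40 and 9.49 in those of set 2, and between 9.30 and 11.40 in the 4 truncated arrays (7 genes of 8 listed). Erythroid genes had list medians of 11.01 and 10.49 in the full-length arrays of set 1 and between 7.98 and 8.83 in the other 6 arrays (13 genes tested of 20 listed). Their summed level in log2 units (14 genes on the array) was higher in set 1 in both genotypes. It was 14.57 and 14.66 against 12.31 and 12.39 in full-length arrays, and 13.43 and 13.53 against 12.40 and 12.43 in truncated arrays. Mast cell and basophil genes had list medians of 9.85 and 9.87 in the full-length arrays of set 2 and between 6.05 and 7.64 in the other 6 (8 genes). Primary granule genes also differed between the genotypes, with a median difference of 3.69. In 5 of the 7 tested, all 4 truncated arrays lay above all 4 full-length arrays. Other myeloid markers separated the genotypes in both sets. All 4 truncated arrays lay above all 4 full-length arrays for 10 of 10 secondary and tertiary granule genes (median difference 2.80) and for 10 of 12 monocyte and macrophage genes (median difference 1.75). The part of these cell types in the members' differences was not tested.

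No oxidative phosphorylation gene passed the test between the genotypes, and most measured differences were small. A total of 79 members passed the filter on low signal, and 0 had an adjusted p under 0.05 (limma, Benjamini-Hochberg over 11388 genes), and the share over all genes was also 0%. The smallest adjusted p was 0.269 among the members and 0.0668 among all genes. At an unadjusted p under 0.05, 0 members were higher in truncated arrays, where 8.82% of all genes were, and 1 member (Ndufa4l2) was lower, where 5.3% of all genes were. The members' differences were small: the median absolute difference was 0.16, against 0.26 over all genes tested, and 6 members (7.59%) differed by at least 0.5, against 26.3% of all genes. A difference of at least 1 was seen for 1 member (1.27%) and for 10.2% of all genes.

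The 95% intervals had a median reach to either side of 0.68 for members and 0.66 for all genes. They lay wholly within -1 to 1 for 58 of 79 members, so for these a change of 1 log2 unit lay outside the interval, while smaller differences could not be told from 0 with 2 animals per genotype. An exact permutation test of 2 against 2 animals cannot go below 0.333 (two-sided). With same-labelled arrays as a replicate block, 9 members were higher and 3 lower at an unadjusted p under 0.05 (limma), but so were 13.5% and 13.8% of all genes. That fit takes the arrays of an animal as independent, and at an adjusted p under 0.05 it called 8.28% of all genes and 0 members.

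**Figure D1:**
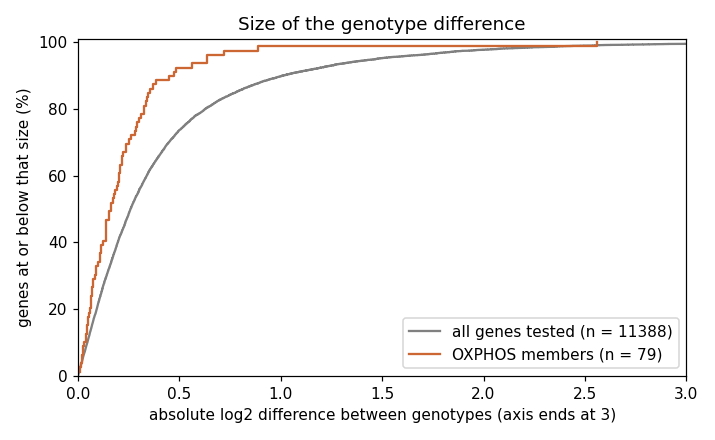
Cumulative share of genes (vertical axis, percent) at or below each absolute log2 difference between genotypes (horizontal axis), for the 79 members tested and all 11388 genes tested. The member curve lies above that of all genes through most of the range, with medians of 0.16 and 0.26, and its last step is Ndufa4l2.

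Directions were mixed, with 51 members above 0 and 28 below; 64.6% of members and 48.4% of all genes had a difference above 0. The median difference was 0.08 over the members and -0.01 over all genes. The median level of the members was 10.20 in full-length animal 1 and 9.99, 10.002 and 10.02 in the 3 arrays of full-length animal 2. It was 10.28 in truncated animal 1 and 10.13, 9.87 and 9.87 in truncated animal 2. The animal means were 10.10 ± 0.14 (SD, n = 2) and 10.12 ± 0.23 (SD, n = 2), so the genotypes overlapped and lay closer together than the animals of either one. Complex V had the highest share of members above 0, with 13 of 17 and a median difference of 0.11. The median difference was 0.09 for complex I (20 above 0 and 14 below), 0.05 for complex II (3 and 1), 0.16 for complex III (6 and 2) and 0.02 for complex IV (9 and 7).

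**Figure D2:**
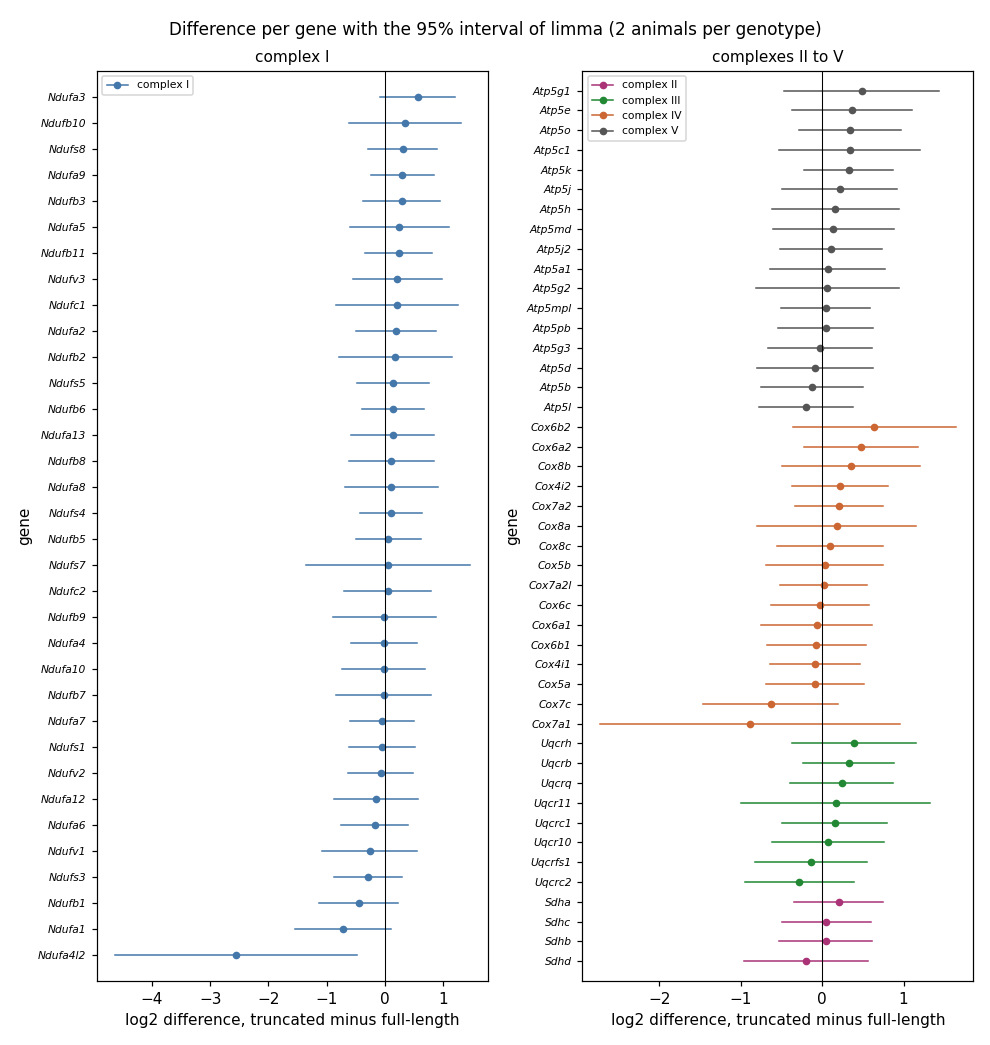
Log2 difference (truncated minus full-length, horizontal axis) for each of the 79 members tested, by complex; points are differences of the animal means and lines are 95% intervals of limma with 2 animals per genotype. The interval holds 0 for 78 members, the exception being Ndufa4l2, and the 2 panels have different horizontal scales.

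Complex I takes electrons from NADH and is the largest complex of the chain; it supplied 34 of the members tested. Its most divergent member was Ndufa4l2, a relative of Ndufa4 that is known as a target of the hypoxia response. It read 9.15 in full-length animal 1 and 8.87, 5.57 and 5.39 in the 3 arrays of full-length animal 2. The truncated arrays read 5.50 in animal 1 and 4.93, 5.39 and 5.14 in animal 2. Both full-length arrays of set 1 were thus far above the other 6, and the genotypes overlapped. Means over animals were 7.88 ± 1.801 for full-length and 5.32 ± 0.24 for truncated (SD, n = 2). The difference was -2.56 (95% interval -4.64 to -0.47, limma adjusted p = 0.27). Within array set 2 the difference was -0.21, and without the 2 full-length arrays of set 1 it was -0.15.

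Ndufa1, a small membrane subunit encoded on the X chromosome and needed to assemble complex I, showed the same array pattern. Its values were 12.52 in full-length animal 1 and 12.40, 11.34 and 11.40 in full-length animal 2. In the truncated arrays it read 11.37 in animal 1 and 11.52, 11.37 and 11.36 in animal 2. Only the 2 full-length arrays of set 1 stood apart, and the other 6 arrays lay within 11.34 to 11.52. The difference was -0.72 (95% interval -1.55 to 0.11; limma adjusted p = 0.42). Within array set 2 it was -0.01, and without the 2 full-length arrays of set 1 it was 0.02. Ndufa3, next by size, went the other way. This small accessory subunit of the membrane arm read 9.83 in full-length animal 1 and 9.51, 9.55 and 9.63 in full-length animal 2, and 10.46 in truncated animal 1 and 10.38, 9.93 and 9.87 in truncated animal 2. All 4 truncated arrays were above all 4 full-length arrays. The difference was 0.56 (95% interval -0.09 to 1.21; limma adjusted p = 0.43), with 0.75 in array set 1 and 0.31 in array set 2. A second probe set of Ndufa3 differed by 0.52. Its arrays overlapped, with 9.54 in full-length animal 1 and 9.51 in array 3 of truncated animal 2. The remaining probe set, which did not pass the filter, differed by -0.35.

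Ndufa4 itself read 9.88 in full-length animal 1 and 10.10, 10.10 and 10.17 in full-length animal 2, and 10.02, 10.61, 9.61 and 9.68 in the truncated arrays in the same order. Its difference of -0.01 (95% interval -0.58 to 0.56) joined a difference of 0.32 in array set 1 to one of -0.49 in array set 2. Among the core subunits that carry electrons, Ndufs8 (an iron-sulfur subunit) was higher in all 4 truncated arrays, at 10.74, 10.69, 10.51 and 10.58 against 10.50, 10.10, 10.25 and 10.29. Its lowest truncated value and its highest full-length value nearly touched. The other probe sets of Ndufs8 differed by 0.06 to 0.26, and in each of them the arrays of the genotypes overlapped. The accessory subunits Ndufa6 and Ndufb1 had all 4 truncated arrays below the full-length ones. Ndufa6 differed by -0.17, with 9.97 in truncated animal 1 against a lowest full-length value of 9.99. Ndufb1 differed by -0.45, with full-length values of 7.79, 7.34, 7.24 and 7.29 and truncated values of 7.17, 7.09, 6.96 and 6.98. Ndufs7, another iron-sulfur subunit, differed widely between animals of a genotype in the probe set used. It read 10.40 in full-length animal 1 and 9.27 to 9.41 in the other full-length arrays. It read 10.58 in truncated animal 1 and 9.10 to 9.56 in the other truncated arrays. The genotype difference in this probe set was 0.06. A second probe set of Ndufs7 had a narrower gap, at 9.58 against 9.40 to 9.47 in full-length arrays and 9.75 against 8.93 to 9.49 in truncated arrays.

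Over all complexes, 5 members had every truncated array above every full-length array in the probe set used (Ndufa3, Ndufs8, Cox6a2, Cox7a2 and Atp5k). This is 6.33% of those tested, and 10.3% of all genes did. The reverse held for 2 members (Ndufa6 and Ndufb1), or 2.53%, and for 8.75% of all genes. Both shares were below the background.

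**Figure D3:**
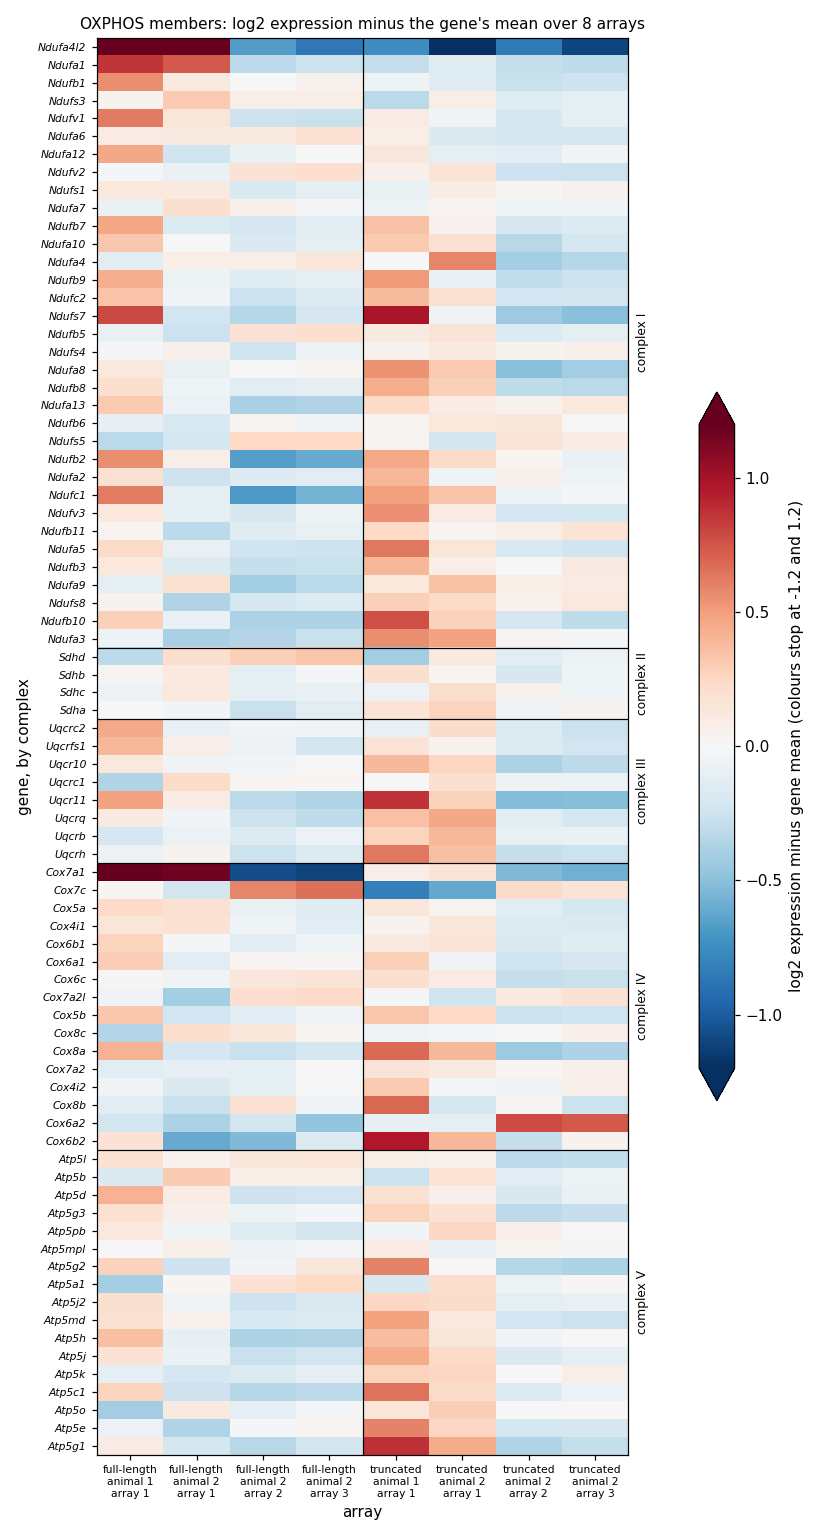
Log2 expression of the 79 members tested minus each gene's mean over the 8 arrays (colour), with genes in rows by complex and the 8 arrays in columns. Full-length animal 1 and truncated animal 1 are red for many genes, arrays 2 and 3 of truncated animal 2 are mostly blue, and Ndufa4l2, Ndufa1 and Cox7a1 are deep red in the first 2 columns.

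Complex II oxidises succinate in the tricarboxylic acid cycle, and its 4 subunits differed by no more than 0.20 in either direction. Sdha, the flavoprotein that holds the active site, read 9.61 in full-length animal 1 and 9.58, 9.35 and 9.49 in full-length animal 2, and 9.78, 9.88, 9.57 and 9.66 in the truncated arrays, a difference of 0.20 (95% interval -0.35 to 0.75). Sdhb, the iron-sulfur subunit, read 9.73, 9.82, 9.59 and 9.69 against 9.89, 9.73, 9.51 and 9.65, a difference of 0.04 (95% interval -0.53 to 0.62). Both genes had overlapping arrays. The membrane anchors Sdhc and Sdhd bind ubiquinone. Sdhc read 9.13, 9.33, 9.09 and 9.13 in full-length arrays and 9.14, 9.41, 9.26 and 9.16 in truncated arrays, a difference of 0.05 (95% interval -0.49 to 0.60). Sdhd was lowest in animal 1 of each genotype, at 9.37 against 9.89, 9.98 and 10.02 in full-length and 9.28 against 9.81, 9.55 and 9.62 in truncated arrays. Its difference was -0.20 (95% interval -0.97 to 0.57), and its second probe set differed by 0.0012. The smallest adjusted p of the 4 was 0.778 (limma).

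Complex III moves electrons from ubiquinol to cytochrome c. Uqcrh, the hinge subunit that contacts cytochrome c1, read 10.43, 10.53, 10.23 and 10.33 in the full-length arrays and 11.13, 10.85, 10.22 and 10.24 in the truncated arrays. Both truncated arrays of set 1 were above every other array, and those of set 2 lay at the full-length level. Its difference was 0.39 (95% interval -0.37 to 1.15; limma adjusted p = 0.67), from 0.51 in array set 1 and -0.05 in array set 2. Uqcrb, a ubiquinone-binding subunit with the highest signal among the complex III probe sets (signals of different probe sets do not rank transcripts), read 11.71, 11.84, 11.74 and 11.84 against 12.18, 12.31, 11.82 and 11.83, again with the truncated arrays of set 1 on top. It differed by 0.32 (95% interval -0.24 to 0.88; limma adjusted p = 0.62). Uqcrc2, a core protein, went the other way at -0.28 (95% interval -0.95 to 0.39), with 11.04 in full-length animal 1 and between 10.33 and 10.80 in the other 7 arrays; its second probe set differed by -0.01. The Rieske iron-sulfur protein Uqcrfs1 differed by -0.14 and the core protein Uqcrc1 by 0.15. Uqcr11 had the widest spread within genotypes, from 9.02 to 9.86 in full-length and from 8.86 to 10.24 in truncated arrays.

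Complex IV, which reduces oxygen, holds most of the subunits with tissue-specific forms. The common forms were close to 0. Cox4i1, which helps set the activity of the enzyme, read 12.03, 12.06, 11.84 and 11.76 in full-length arrays and 11.93, 12.03, 11.72 and 11.71 in truncated arrays, a difference of -0.08 (95% interval -0.64 to 0.47). Cox6a1 differed by -0.07 (95% interval -0.76 to 0.62) and Cox6b1 by -0.07 (95% interval -0.68 to 0.54), each with overlapping arrays. Cox6a1 had the highest signal among the complex IV probe sets. Cox8a differed by 0.18 (95% interval -0.80 to 1.15), with animal 1 highest in both genotypes at 9.72 and 9.98. Cox7a2, the widely made form of subunit 7a, read 11.22, 11.25, 11.22 and 11.35 in full-length arrays and 11.50, 11.45, 11.37 and 11.41 in truncated arrays. All truncated values were above all full-length values, by a small step, and the difference was 0.21 (95% interval -0.33 to 0.75; limma adjusted p = 0.77).

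Of the heart and muscle forms, the measured difference was below 0 for Cox7a1 and above 0 for Cox6a2 and Cox8b, with intervals that all held 0. Cox7a1, the muscle form of subunit 7a, read 6.77 in full-length animal 1 and 6.06, 3.83 and 3.79 in full-length animal 2. Truncated animal 1 read 4.98 and truncated animal 2 read 5.06, 4.37 and 4.32. The full-length arrays of set 1 were the 2 highest and those of set 2 the 2 lowest of all 8. The difference was -0.89 (95% interval -2.73 to 0.95, limma adjusted p = 0.69). It had opposite signs in the sets, -1.40 in array set 1 and 0.53 in array set 2. Without the 2 full-length arrays of set 1 it was 0.97. However, every value in array set 2 was below the filter cut of 4.76. At such signals a probe set may not report its transcript, so the change of sign is not read as a result. Of 9 muscle genes on the array 3 passed the filter, and their list median lay between 5.28 and 5.72 in all 8 arrays. Cox6a2, the muscle form of subunit 6a, read 5.80, 5.63, 5.80 and 5.55 in full-length arrays and 5.92, 5.90, 6.80 and 6.75 in truncated arrays. All truncated arrays were higher, chiefly arrays 2 and 3 of animal 2, and the difference was 0.47 (95% interval -0.23 to 1.17; limma adjusted p = 0.55). Plasma cell markers were also highest in these 2 arrays, with a list median of 8.93 and 8.93 against 4.996 to 5.72 in the other 6 (4 genes tested of 7 listed). Their summed level in log2 units was 9.88 to 10.94 in full-length and 10.68 to 12.02 in truncated arrays. Other lists were highest in the same 2 arrays. The list medians there were 6.71 and 6.70 for B cell genes, against 4.65 to 5.79 in the other 6. They were 11.31 and 11.40 for primary granule genes (4.86 to 9.49) and 11.78 and 11.77 for secondary and tertiary granule genes (6.91 to 11.61). The part of any of these lists in the Cox6a2 difference was not tested. Cox8b, the muscle form of subunit 8, read 5.65 in truncated animal 1 and between 4.69 and 5.14 in the other 7 arrays, a difference of 0.35 (95% interval -0.50 to 1.21).

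Among the other forms, Cox4i2, a hypoxia-linked form best known from lung, differed by 0.22 (95% interval -0.37 to 0.81), with values between 4.78 and 5.26. Cox6b2, known from testis, read 6.24, 5.47, 5.54 and 5.91 in full-length arrays and 7.03, 6.48, 5.80 and 6.12 in truncated arrays. The truncated arrays of set 1 were highest and the rest overlapped, with a difference of 0.64 (95% interval -0.36 to 1.64, limma adjusted p = 0.58). Cox7c, a small membrane subunit, read 6.07, 5.82, 6.63 and 6.70 in full-length arrays and 5.22, 5.43, 6.27 and 6.19 in truncated arrays. In both genotypes it was lower in array set 1 than in set 2, against the run of the members. It differed by -0.63 (95% interval -1.46 to 0.19, limma adjusted p = 0.49), with -0.62 in array set 1 and -0.43 in set 2. Its other probe set, which read 3.15 to 5.58, differed by -1.10. Both probe sets read lower than those of the common forms above, and how well they report the Cox7c transcript is not known here.

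Complex V makes ATP. Atp5g1, Atp5g2 and Atp5g3 encode the same mature subunit, of which several copies form the rotor ring, with different import sequences. Atp5g1 read 9.23, 8.91, 8.80 and 8.90 in full-length arrays and 10.01, 9.57, 8.77 and 8.85 in truncated arrays. The truncated arrays of set 1 stood above all others and those of set 2 did not, with a difference of 0.49 (95% interval -0.47 to 1.44; limma adjusted p = 0.67) made of 0.72 in array set 1 and -0.04 in array set 2. Atp5g2 differed by 0.06 (95% interval -0.81 to 0.94) and Atp5g3 by -0.03 (95% interval -0.67 to 0.61). Atp5g2 also went from 0.28 in array set 1 to -0.41 in set 2, and Atp5g3 from 0.09 to -0.26. Atp5e, a subunit of the central stalk, read 9.27, 8.98, 9.32 and 9.37 against 9.94, 9.59, 9.13 and 9.14, with a difference of 0.37 (95% interval -0.37 to 1.11). It too was highest in the truncated arrays of set 1 and lower in those of set 2. Atp5o, the stalk protein that confers oligomycin sensitivity, differed by 0.34 (95% interval -0.28 to 0.96), with its lowest value, 10.13, in full-length animal 1 and its highest, 10.85, in truncated animal 2. The catalytic subunit Atp5b, whose probe set had the highest signal in complex V, read 12.09, 12.57, 12.35 and 12.34 in full-length arrays and 12.01, 12.43, 12.14 and 12.21 in truncated arrays, a difference of -0.12 (95% interval -0.75 to 0.50). Atp5k, a small membrane subunit, read 10.22, 10.14, 10.18 and 10.24 against 10.61, 10.59, 10.34 and 10.41, with no overlap and a difference of 0.33.

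Ndufb4 and Cox7b2 did not pass the filter and were not tested. Ndufb4 read 3.35, 3.19, 3.27 and 3.29 in full-length arrays and 2.95, 2.96, 2.99 and 3.09 in truncated arrays. Cox7b2, a testis form, lay between 2.28 and 2.67 in all 8. At such signals a probe set may not report its transcript, and a low value is not read as absence.

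The median member differed more between array sets within a genotype than between the animal means of the genotypes. In the truncated arrays, 55 members had both set 1 arrays above both set 2 arrays and 5 had them below, which is 69.6% and 6.33% of members against 36.7% and 27.9% of all genes. The median member was higher in set 1 by 0.28, with 0.04 over all genes. In the full-length arrays, 39 members were higher in set 1 and 11 lower, which is 49.4% and 13.9% against 34.3% and 36.2% of all genes, with a median of 0.16 over members and -0.02 over all genes. In both genotypes these medians exceeded the median genotype difference of 0.08 in animal means. Within array set 1 alone the median genotype difference was 0.16, about the size of the full-length contrast between sets. The widest gaps in the truncated arrays were those of Uqcr11 (1.09), Atp5g1 (0.98), Cox8a (0.94), Ndufs7 (0.93) and Ndufa8 (0.88), and the opposite gaps were those of Cox7c (-0.91) and Cox6a2 (-0.86). Apart from Ndufa4l2 (3.53), Cox7a1 (2.61) and Ndufa1 (1.09), the widest full-length gaps were those of Ndufb2 (0.95) and Ndufc1 (0.89). Proliferation genes, a separate list, moved with the sets too: their list median was 9.40 and 9.63 in set 1 and 9.21 and 9.26 in set 2 of the full-length arrays, and 9.54, 9.78, 9.14 and 9.18 in the truncated arrays (14 genes tested of 15 listed). Their summed level in log2 units was 13.36 to 14.03 in full-length and 13.66 to 13.91 in truncated arrays. The summed erythroid level was also higher in set 1 than in set 2 in both genotypes. It was 14.57 and 14.66 against 12.31 and 12.39 in full-length arrays, and 13.43 and 13.53 against 12.40 and 12.43 in truncated arrays. The part of either list in the members' gap was not tested.

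The genotype difference therefore depended on which arrays were compared. Within array set 1 the median difference was 0.16, with 59 members above 0 and 20 below, and within array set 2 it was -0.05, with 33 above and 46 below. The sign was opposite in the 2 sets for 36 members (45.6%, against 42.6% of all genes), above 0 in both for 28 and below 0 in both for 15. Complex III moved most, from 0.29 in array set 1 to -0.07 in set 2. Complex I went from 0.16 to -0.02, complex IV from 0.13 to -0.07 and complex V from 0.18 to 0.04, and complex II from 0.04 to 0.02. Whether the difference itself differed between array sets was not tested.

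**Figure D4:**
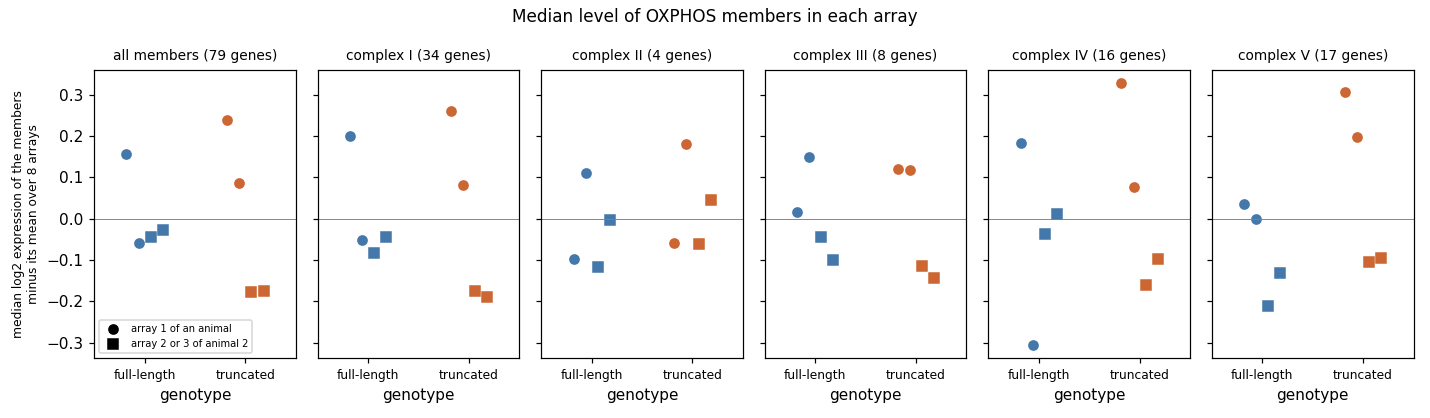
Median log2 expression of the members in each array, minus the mean of that median over the 8 arrays (vertical axis), by genotype, in all 79 members and in each complex. Circles are array 1 of an animal (array set 1) and squares are arrays 2 and 3 of animal 2 (array set 2). In the panel of all members the 2 truncated squares are lowest, and the 2 truncated circles and full-length animal 1 are highest.

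In all, 8 members had both full-length arrays of set 1 above the other 6 arrays (Ndufa4l2, Cox7a1, Ndufa1, Ndufb1, Ndufv1, Cox5a, Ndufs1 and Cox4i1), where 17.98% of all genes did. The gap to the next array was 3.30 for Ndufa4l2, 1.00 for Cox7a1 and 0.88 for Ndufa1, and at most 0.06 for the other 5. A gap of at least 0.5 was seen for these 3 members and for 5.01% of all genes. Of the 13 erythroid genes tested, 12 had the same order. The exception was Alas2, the first enzyme of heme synthesis in red cell precursors, which was as high in the truncated arrays of set 1 (11.18 and 11.34) as in the full-length ones (11.05 and 11.44). The summed erythroid level in log2 units was 12.31 to 14.66 in full-length and 12.40 to 13.53 in truncated arrays. In the truncated arrays it was 13.43 and 13.53 in set 1 and 12.40 and 12.43 in set 2. No erythroid gene is listed at 0; the defining gene Klf1 read 11.82 and 11.43 in the full-length arrays of set 1 and 8.59 to 10.26 in the others, and the probe set of Hba-a1 lay between 3.32 and 3.79 in all 8. Of 5 stromal genes tested only 1 had the order: Dcn, a matrix proteoglycan, read 8.94 and 8.47 in the full-length arrays of set 1 and between 4.56 and 5.29 in the other 6. Pecam1 had the reverse order, at 4.09 and 4.43 against 5.02 to 6.83. Cxcl12 read 3.78 to 4.67 in all full-length arrays and 8.10 to 8.78 in the truncated ones. In Col1a2 and Kdr the full-length arrays of set 1 lay among the others. The summed stromal level in log2 units (9 genes on the array) was 7.83 to 9.42 in full-length and 9.15 to 9.43 in truncated arrays. The part of erythroid or stromal cells in the values of Ndufa4l2, Cox7a1 and Ndufa1 was not tested.

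**Figure D5:**
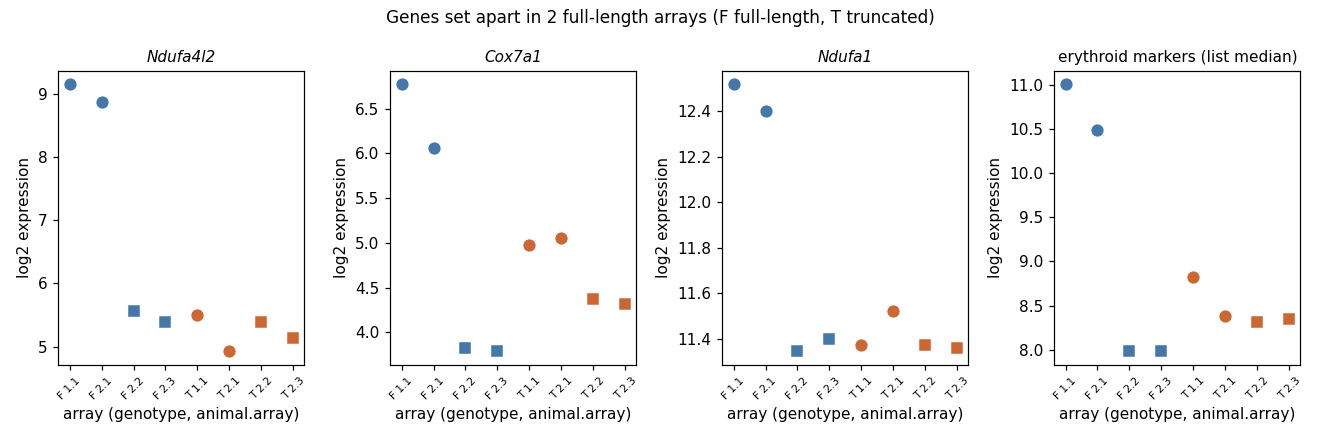
Log2 expression (vertical axes, different scales) in each of the 8 arrays of Ndufa4l2, Cox7a1, Ndufa1 and the median of 13 erythroid markers; circles are array set 1 and squares are array set 2. In each panel the 2 full-length circles lie above the other 6 points, by 3.30 for Ndufa4l2, 1.00 for Cox7a1 and 0.88 for Ndufa1.

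Promoter sequence was read for all members with a known window. Windows of 250 bases before to 50 after the transcription start, from RefSeq (GRCm38.p6), matched 66 of the 81 members in 71 windows. The 250 bases before the start are given for Ndufa1 and Cox7a1, which shared a pattern over arrays, for Sdhb, whose arrays were close, and for Atp5g1, which was highest in the truncated arrays of set 1. Each reads 5′ to 3′ on the strand of the gene, and capitals mark, on either strand, the words of NRF1, MYC and GATA factors that the next paragraph spells out. The windows are chrX:37191239-37191488 (minus strand) for Ndufa1, chr7:30183921-30184170 (plus strand) for Cox7a1, chr4:140961021-140961270 (plus strand) for Sdhb and chr11:96075632-96075881 (minus strand) for Atp5g1.
Ndufa1: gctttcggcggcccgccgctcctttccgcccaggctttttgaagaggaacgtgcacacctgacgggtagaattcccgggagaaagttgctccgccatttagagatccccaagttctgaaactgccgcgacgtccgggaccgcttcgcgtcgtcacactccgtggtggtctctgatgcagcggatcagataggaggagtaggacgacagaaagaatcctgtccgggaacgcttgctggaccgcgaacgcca
Cox7a1: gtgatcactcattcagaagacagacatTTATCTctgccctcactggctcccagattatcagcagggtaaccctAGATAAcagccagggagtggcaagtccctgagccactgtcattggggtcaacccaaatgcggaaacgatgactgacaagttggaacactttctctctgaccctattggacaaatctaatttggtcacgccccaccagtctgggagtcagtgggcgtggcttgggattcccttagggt
Sdhb: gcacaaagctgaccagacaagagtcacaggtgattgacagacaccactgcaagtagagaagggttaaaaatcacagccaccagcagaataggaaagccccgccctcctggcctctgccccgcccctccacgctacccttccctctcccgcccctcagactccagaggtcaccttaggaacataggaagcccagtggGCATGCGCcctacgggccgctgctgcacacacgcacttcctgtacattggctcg
Atp5g1: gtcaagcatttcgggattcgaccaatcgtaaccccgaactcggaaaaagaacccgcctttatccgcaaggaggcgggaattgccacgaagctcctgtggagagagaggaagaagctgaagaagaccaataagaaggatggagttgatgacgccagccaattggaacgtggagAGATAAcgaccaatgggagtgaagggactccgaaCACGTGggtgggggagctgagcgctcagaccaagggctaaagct

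The Cox7a1 window holds 2 GATA words, that of Sdhb an NRF1 word, and that of Atp5g1 an E-box and a GATA word; none of the searched words lies in the Ndufa1 window. NRF1 is a transcription factor known to bind the promoters of many respiratory chain genes. Its word GCGCATGC was in 9 of 71 member windows (12.7%), in 2.71% of all 32851 RefSeq windows and in 4.98% of the windows of tested genes. Members with it were Sdhb, Uqcr11, Uqcrc1, Cox6a1, Ndufa6, Ndufa8, Atp5g2, Atp5k and Atp5l. The word AAGATGGC of YY1 was also in 9 windows (12.7%, against 2.75% and 4.44%), among them those of Ndufa3, Ndufs7 and Ndufc1. The word ACTTCCGG of ETS factors such as GABP was in 5 windows (7.04%, against 3.89% and 7.87%), namely those of Uqcrh, Uqcr11, Cox8a, Ndufs3 and Atp5h. TCAAGGTCA of the estrogen-related receptors was in 2 (2.82%, against 0.423% and 0.28%), those of Sdhd and Atp5g3, and CACGTG in 7 windows of 6 genes (9.86%, against 7.15% and 9.96%). AGATAA, which was searched after the values were seen, was in 6 windows (8.45%, against 11.2% and 6.57%). All words were searched on both strands; a match describes letters only.

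Among genes that build, supply or regulate the chain, 0 had an adjusted p under 0.05 (limma) in each of 5 lists; counts at an unadjusted p follow. Of the further subunits and electron carriers, 18 of 20 were tested, with 9 above 0, 9 below, a median difference of -0.02 and 0 at an unadjusted p under 0.05. Among them, Etfb, which carries electrons from fatty acid oxidation, differed by 0.55 and Dhodh, which couples pyrimidine synthesis to ubiquinone, by -0.46. Of the assembly factors, 48 of 52 were tested (23 above 0 and 25 below, median -0.05), with 2 higher and 1 lower at an unadjusted p under 0.05, which are smaller shares than the 8.82% and 5.3% of all genes. These were Nubpl, which delivers iron-sulfur clusters to complex I (0.90, 95% interval 0.25 to 1.56; limma adjusted p = 0.22), Ndufaf5 (0.62) and Ndufaf4 (-0.73). Nubpl was higher in all 4 truncated arrays, at 6.98, 6.82, 6.73 and 6.79 against 6.20, 5.88, 5.66 and 5.74. Higd1a, a hypoxia-induced partner of complex IV, differed most (-1.04, 95% interval -2.23 to 0.14). It read 10.74 and 10.53 in the full-length arrays of set 1 and between 8.63 and 9.36 in the other 6, the order of Ndufa4l2.

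Genes that keep and transcribe mitochondrial DNA had 5 differences above 0 and 15 below among 20 tested of 22 listed, with a median difference of -0.19, where the median over all genes was -0.01. At an unadjusted p under 0.05, 1 of them was higher (Polg, the mitochondrial DNA polymerase, 0.59) and 0 were lower. The largest differences were those of Mterf2 (-0.82) and Trmt10c (-0.68). Tfam, which packages mitochondrial DNA, read 8.86, 8.48, 8.42 and 8.41 in full-length arrays and 8.08, 8.03, 8.07 and 8.03 in truncated arrays. Its arrays did not overlap, and the difference was -0.58 (95% interval -1.21 to 0.05; limma adjusted p = 0.39). Regulators of mitochondrial biogenesis had a median of -0.18 (6 above 0 and 9 below, 15 tested of 18). Pparg, a lipid-sensing nuclear receptor, was higher at an unadjusted p under 0.05 (2.17, 95% interval 0.48 to 3.87, limma adjusted p = 0.25). It read 7.15 and 6.42 in the truncated arrays of set 1, 4.37 and 4.50 in those of set 2, and at most 4.04 in full-length arrays. All full-length values were below the filter cut of 4.76. Pparg thus entered the test only through the truncated animals, where it is high, and its p and interval are not read as evidence. Gabpa differed by -0.61, and Nrf1 by -0.47 with no overlap of its arrays. In the tricarboxylic acid cycle, 25 of 28 genes were tested (10 above 0 and 15 below, median -0.06), with Idh2 higher (1.07, 95% interval 0.33 to 1.81; limma adjusted p = 0.21) and Pdp1 lower (-0.63) at an unadjusted p under 0.05. Idh2, the mitochondrial NADP-linked isocitrate dehydrogenase, read 7.77, 8.05, 7.39 and 7.40 in full-length arrays and 9.08, 8.86, 8.14 and 8.31 in truncated arrays.

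Probe sets of a gene did not always run together. Of the 79 members, 44 had more than 1 probe set above the filter, and in 16 of these the probe sets gave differences of opposite sign. Among the members described above, this applies to Cox6a1, at -0.07 and 0.13, and to Sdhd and Ndufs7.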

How the data were processed

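Total RNA of spleen cells was biotin-labelled and hybridised to Affymetrix arrays, per the labels' protocols. The deposited table holds log2 values of 45101 probe sets made by the authors with RMA (version not given), per the submitters' processing notes; that the base is 2 follows from their range only. RMA draws dim values together, so differences of dim genes are understated. The number of arrays limits the precision.

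Gene symbols came from the platform annotation: 34958 had 1 symbol, 932 had several and were left out (9 of these with a member symbol), 64 were controls, and the rest had none. The arrays of an animal were averaged. A gene was tested where at least 2 of 4 animals exceeded 4.76, the median signal of the table, which left 11388 genes. The genotypes were compared by the moderated linear model of limma 3.58.1 (lmFit, eBayes; R 4.3.3; 2 residual and 3.24 prior degrees of freedom), with Benjamini-Hochberg adjustment over all genes tested; the script was tested on simulated data. The labels do not say how arrays of an animal differ, so spread may be partly technical.

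Same-labelled arrays of the genotypes (animal and array number in the titles) deviated together, with correlations of 0.144 to 0.301 against -0.251 to 0.227 for other pairs; a fit with that number as a replicate block was an alternative. Others were the animal as a random block, 1 array per animal, animals or arrays left out, other probe set rules, filters, centring and prior. Values within array sets were added after seeing the data.

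Named with values were, in each complex, the 3 members with the largest absolute difference and the 1 with the highest signal, the tissue-form pairs, the rotor ring genes, the Sdh genes, and the 2 largest of each pathway list; those named for arrays that did not overlap, a low unadjusted p or a contrast between array sets were chosen after their values were seen. Members, pathway lists and marker lists were chosen with earlier results of these data known. Promoter words were searched with Python 3.11.15.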

Additional observations from a re-analysis of the deposited data

Results flagged for a closer look

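In 68 sets of 4 arrays of a genotype (members named by the rule and medians of complexes), an array far from the other 3 was found in 5. Far means a gap above Dixon's 95% critical value, which 4 independent arrays exceed by chance in about 1 of 20. These arrays are not independent and the sets share genes, so the count cannot be set against that rate. The median level of all members was 10.20 in full-length animal 1 and 9.99 to 10.02 in the other full-length arrays. The median level of complex I was 10.09 in full-length animal 1 and 9.81 to 9.85 in the others. Uqcrc2 read 11.04 in full-length animal 1 and 10.49 to 10.56 in the others. Cox8a read 9.72 in full-length animal 1 and 9.03 to 9.10 in the others. Ndufa1 read 11.52 in array 1 of truncated animal 2 and 11.36 to 11.37 in the other truncated arrays.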

How the results depend on the processing

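The median difference of the members was 0.08 in the comparison of animal means and lay between -0.02 (without truncated animal 1) and 0.21 over the alternatives, and at -0.05 within array set 2, so its sign was not stable. Counts at a p are not given for fits that leave 1 animal in a genotype. In the other alternatives the count of members with an adjusted p under 0.05 was 0 except with 1 array per animal. That setting takes array 1 of each animal, so it is the contrast within array set 1 again. Its 2 arrays of a genotype were much alike (correlation 0.989 and 0.987), and the labels that call them different animals may be wrong. It called 8 members (Atp5e, Atp5g1, Cox6b2, Cox7a1, Cox7c, Ndufa1, Ndufa3 and Ndufa4l2). A larger share of all 11388 genes was called, with 1657 higher and 1350 lower. With the replicate block, 9 members were higher and 3 lower at an unadjusted p under 0.05 (13.5% and 13.8% of all genes), against 0 and 1 with animal means. With the random block 1 was higher and 1 lower (8.94% and 7.28%), and with 1 array per animal 6 and 4 (17.9% and 16.7%). With single arrays left out the range was 0 to 1 higher and 0 to 2 lower, where 5.78% to 10.6% and 2.77% to 8.14% of all genes were. The lower count was 0 with the filter at the 75th percentile (6.42% of all genes) and with unadjusted p under 0.01 (1%). The count of members whose arrays did not overlap, 7, was 33 with 1 array per animal (58.1% of all genes), 36 with full-length array set 1 left out (48.3%) and 4 with the probe set of highest SD (20%), and 8 to 47 with animals or arrays left out (20.3% to 67.3%), since fewer arrays overlap less often.

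Of the values of named members under alternatives, 41 changed sign, 527 kept their sign and call and 10 newly passed the threshold; the cause was not tested. Atp5g2 was -0.011 with the random block, -0.062 with the replicate block and -0.069 as the mean of its probe sets, and Sdhb -0.013 with the replicate block. With 1 array per animal Ndufa4 was 0.32, Cox6a1 0.037, Cox6b1 0.00285 and Atp5g3 0.094. With full-length array set 1 left out, Ndufa1 was 0.023, Cox4i1 0.076, Cox6a1 0.045, Cox6b1 0.123, Cox7a1 0.970 and Atp5g3 0.103. Cox6a1 was 0.13 with its probe set of highest SD and 0.032 as their mean, and Ndufa4 0.0029 with centred arrays. With an animal or array left out the ranges were -0.29 to 0.16 for Cox6a1, -0.24 to 0.095 for Cox6b1, -2.00 to 0.22 for Cox7a1, -0.23 to 0.18 for Atp5g3, -0.17 to 0.11 for Ndufa4, -0.49 to 0.094 for Sdhd, -0.23 to 0.58 for Cox8a, -0.29 to 0.044 for Atp5b, -0.35 to 0.48 for Atp5g2, -0.086 to 0.175 for Sdhb, -0.066 to 0.775 for Cox8b and -0.018 to 0.119 for Sdhc. A lone animal was assumed to vary like the other genotype. With 2 animals per genotype, differences smaller than about 0.54, the shortest reach of an interval to either side, could not be detected in any member.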
